A study of Homo sapiens with 12 samples.

Results

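The response of Hs695T, a human melanoma cell line, to MAPK inhibitors and a histone deacetylase inhibitor given together was compared with what the separate responses predict, gene by gene. Genes count as departing from additivity when the interaction, (combination minus MAPKi) minus (HDACi minus vehicle) on log2 intensities, passed the test with the same sign on the deposited scale and after quantile normalization. By this rule 1062 of 14599 named genes departed. The 12 arrays comprised 4 groups of 3, all from cells grown alike and harvested after 24 h of treatment. Vehicle cells received DMSO, MAPKi cells received dabrafenib (100 nM) and trametinib (10 nM), HDACi cells received entinostat (1 µM), and combination cells received all 3 drugs. The labels abbreviate these groups as DMSO, DT, E and DTE. Every group comes from a single cell line at 1 dose and 1 time. The array titles speak of biological replicates, but the design text speaks of technical triplicates, so p-values cover the spread between these arrays only.

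Dabrafenib blocks the kinase BRAF and trametinib the kinase MEK, which passes the signal on to ERK. ERK in turn drives transcription of its own feedback inhibitors, of ETS and AP-1 transcription factors and of genes for entry into the cell cycle. Entinostat blocks class I histone deacetylases, enzymes that remove acetyl groups from histones, and such inhibitors both induce silent genes and repress many active ones. Additivity on the log2 scale means that fold changes multiply: a drug has the same fold effect whether or not the other is present. A positive interaction places the combination above that expectation, and a negative one places it below.

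Signal was lower over most genes in arrays from MAPKi-treated cells. The median change over all genes was -0.48 (log2) with MAPKi, -0.20 with HDACi and -0.72 with the combination, and after quantile normalization it was 0.01, -0.04 and -0.03. The interaction was little shifted by this, with a median over all genes of -0.05 (deposited) and 0.00 (quantile). In vehicle cells 4 of 15 melanocyte genes lay above the median gene. The lineage transcription factors SOX10, PAX3 and MITF lay at the 96.1, 84.2 and 44.6 percentiles of all genes, and the pigment genes TYR, TYRP1 and MLANA lay at 10.6, 8.0 and 15.3. Of 8 keratinocyte, 3 fibroblast, 6 immune and 5 endothelial markers measured, 0 departed, against 7.27% of all genes. The mean log2 level of the endothelial list was 5.52 to 5.71 on vehicle arrays, 4.65 to 4.88 with MAPKi, 5.61 to 5.74 with HDACi and 4.66 to 5.05 with the combination, and KDR, a growth factor receptor, moved most within it, from a mean of 8.60 in vehicle to 5.68 with MAPKi. That of the immune list was 5.95 to 6.13, 5.51 to 5.59, 5.89 to 6.05 and 5.41 to 5.62 in the same order. All arrays come from a single cell line, and the presence of other cells was not tested.

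Departures from additivity ran in both directions. Of the genes tested, 7.27% departed, 438 (3%) upward and 624 (4.27%) downward. The deposited scale alone gave 462 positive and 706 negative genes (8%) and the quantile scale alone 907 and 914 (12.5%). The excess of downward genes thus depends on scaling, and it also rests on vehicle replicate 2, without which 474 genes departed upward and 466 downward. In the fits on all arrays 0 genes passed both with opposite signs. The threshold fell between LINC00205 (interaction -0.53, adjusted p = 0.0499) and HDHD2 (-0.47, adjusted p = 0.0501), with SENP5 (-0.48, 0.0499) and ZNF112 (-0.55, 0.0503) next on either side. Here and below, interactions are log2 differences ± the limma standard error, with a median standard error of 0.175, and adjusted p is limma's, adjusted by Benjamini-Hochberg over all genes. An interaction of at least 1 in size on both scales was seen in 183 departing genes, 99 positive and 84 negative. Bright genes departed more often than dim ones, from 1.23% in the dimmest of 10 equal bins by mean level to 15.1% in bin 9 and 13.6% in the brightest. Judged by sums of linear intensity changes in place of log2 changes, 1035 of the 1062 kept the sign of their departure.

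**Figure D1:**
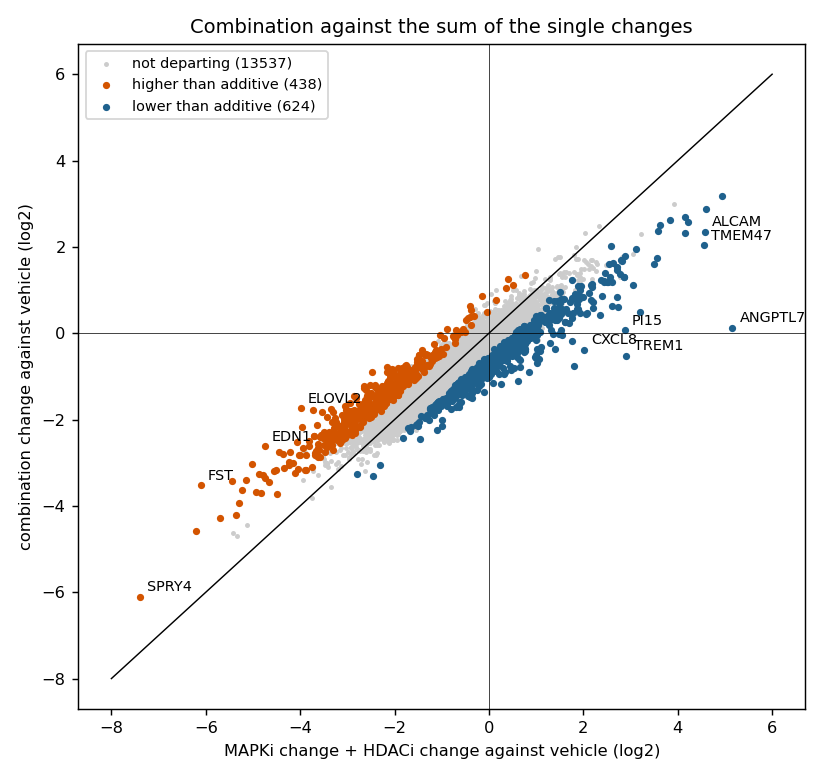
Each point is a gene, with the sum of its MAPKi and HDACi changes against vehicle on the x axis and its change with the combination on the y axis (log2, deposited scale); the line marks additivity. The 438 genes higher than additive (orange) lie mainly where the sum is well below 0, and the 624 lower than additive (blue) are spread around 0 and above it; both axes use the same 3 vehicle arrays.

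Departing genes were sorted by their 4 group means. A drug was taken to give a rise or a fall when its group mean differed from vehicle by at least 0.5 (log2), without a test, and a gene kept its shape only where both scales gave the same one. This held for 495 genes, and the other 567 changed shape with the scale. Among genes of a settled shape, 143 had falls with both drugs that did not add, and 99 had a MAPKi fall that HDACi weakened. Rises with both drugs that did not add were found in 59, a MAPKi rise weakened by HDACi in 56 and an HDACi rise weakened by MAPKi in 38. In 64 genes neither drug alone reached 0.5 and the combination lay below the sum, and in 9 neither did and it lay above. These last classes are set by the sign of the interaction, not by the size of the combination's own change. The shapes use the vehicle arrays for every change, and the vehicle mean enters the interaction with the opposite sign, so error in it favours shapes that do not add. Counts of the combination against a single drug within a shape are descriptions, because the shape largely fixes their direction.

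**Figure D2:**
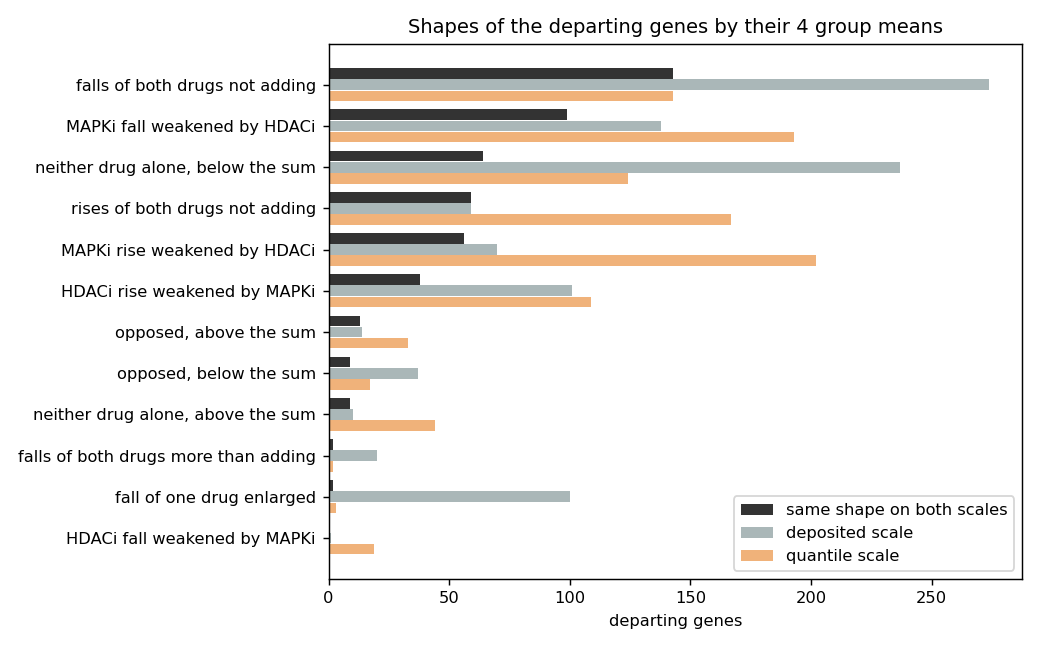
Bars give the number of departing genes (x axis) with each shape, counted on the deposited scale (grey), on the quantile scale (orange) and where both agree (black). Falls of both drugs not adding are the most frequent shape on both scales together (143 genes), and the class in which neither drug alone reached 0.5 and the combination lay below the sum is reduced from 237 genes on the deposited scale to 64.

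The largest single departure, that of ANGPTL7, lay among the genes with a MAPKi rise weakened by HDACi. ANGPTL7, a secreted angiopoietin-like protein, had log2 intensities of 5.36, 5.47 and 5.02 in vehicle, 10.85, 10.90 and 10.59 with MAPKi, 4.85, 4.97 and 5.01 with HDACi, and 5.27, 5.47 and 5.49 with the combination. The MAPKi arrays stood far above all others, and the combination arrays overlapped vehicle. Its interaction was -5.03 ± 0.18 (adjusted p = 1.36e-10, quantile -4.93), a combination level 32.6-fold below the additive expectation of 10.44. After quantile normalization the combination lay 0.70 above vehicle, against 5.90 with MAPKi. PI15, a peptidase inhibitor, behaved alike at a lower level. It measured 3.83, 4.11 and 3.86 in vehicle, 7.06, 6.21 and 6.64 with MAPKi, 4.10, 3.94 and 4.25 with HDACi, and 4.06, 3.84 and 4.09 with the combination, so the combination again overlapped vehicle (-2.81 ± 0.24, adjusted p = 2.95e-06, quantile -2.81).

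FOXD3, a neural crest transcription factor, measured 5.0, 5.29 and 5.09 in vehicle, 6.90, 6.79 and 6.76 with MAPKi, 4.75, 4.89 and 4.88 with HDACi, and 4.30, 5.21 and 4.74 with the combination. Its 3 MAPKi arrays lay above the other 9 (-1.78 ± 0.24, adjusted p = 0.000198, quantile -1.76). MATN2, a matrix adaptor protein, kept part of its rise: vehicle arrays were at 5.79, 5.46 and 5.70, MAPKi at 8.34, 8.24 and 8.21, HDACi at 5.57, 5.67 and 5.69, and the combination at 6.38, 6.38 and 6.08. The combination lay between MAPKi and the rest without overlap (-1.98 ± 0.16, adjusted p = 2.41e-06, quantile -1.70). PPP2R2B-IT1, a transcript from an intron of PPP2R2B, departed by -1.94 ± 0.30 (adjusted p = 0.000628). All 56 genes of this shape were lower with the combination than with MAPKi, in a comparison that called 40.6% of all genes lower and 49.3% either way (after quantile normalization 52 of 56, against 23.5% and 43.3%). Their median change was 0.83 with MAPKi, -0.02 with HDACi and -0.19 with the combination, against a median sum of 0.81. After quantile normalization these medians were 1.4, 0.08 and 0.62, against a sum of 1.61. Whether the rise was lost or kept in part thus depends on scaling.

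**Figure D3:**
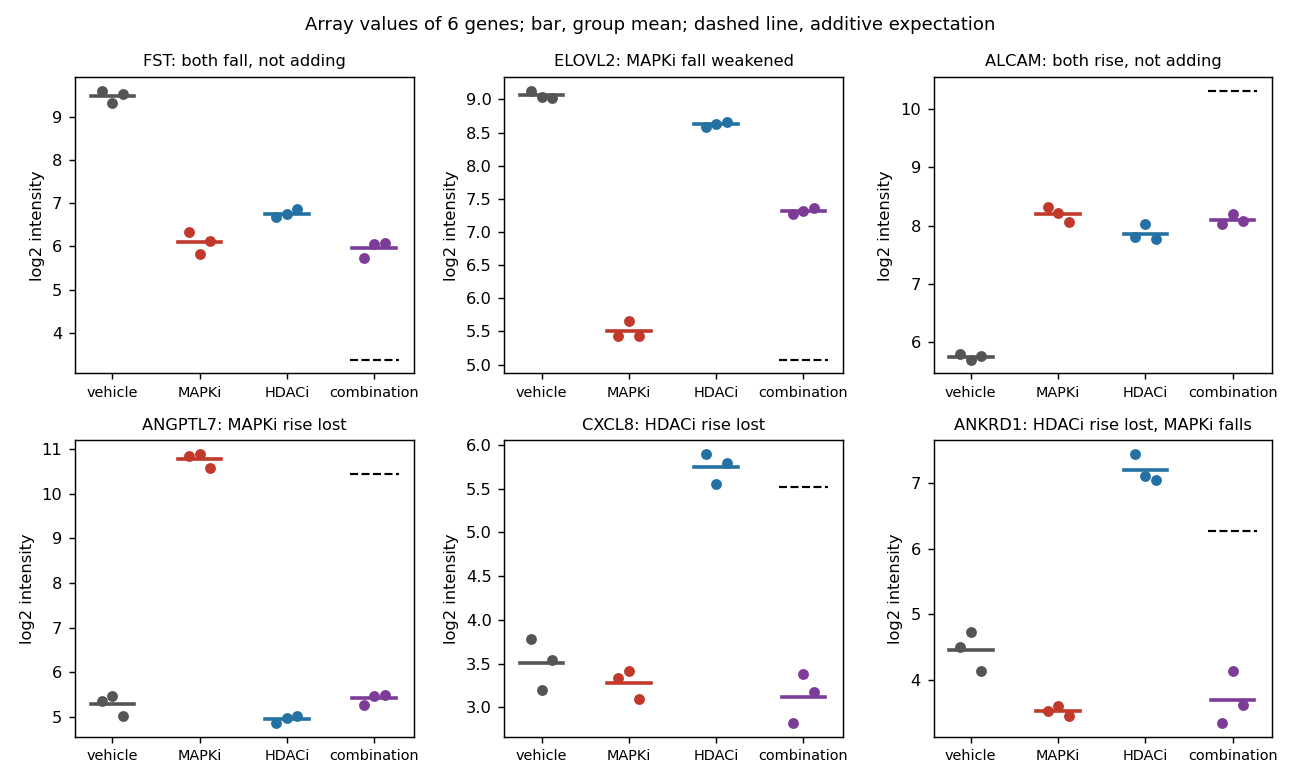
Log2 intensity (y axis) of 6 genes on each array of the 4 groups (points), with group means (bars) and the additive expectation for the combination (dashed line). The combination lies above the expectation for FST (interaction 2.59) and ELOVL2 (2.25) and below it for ALCAM (-2.22), ANGPTL7 (-5.03), CXCL8 (-2.40) and ANKRD1 (-2.58).

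HDACi raised a group of secreted inflammatory and matrix-degrading proteins that the combination did not raise to the same level. CXCL8, a neutrophil-attracting chemokine, measured 3.79, 3.20 and 3.54 in vehicle, 3.34, 3.42 and 3.10 with MAPKi, 5.90, 5.55 and 5.80 with HDACi, and 2.82, 3.38 and 3.18 with the combination. The HDACi arrays stood apart and the other 3 groups overlapped (-2.40 ± 0.23, adjusted p = 1.03e-05, quantile -2.22). MMP13, a collagenase, measured 3.67, 3.55 and 2.62 in vehicle, 2.96, 2.69 and 3.08 with MAPKi, 6.49, 6.31 and 6.36 with HDACi, and 3.78, 4.15 and 3.71 with the combination. Here the combination stayed above MAPKi (0.97 ± 0.21, adjusted p = 0.00109) but below HDACi (-2.51). MMP1, another collagenase, rose by 1.31 ± 0.11 with HDACi and was lower with the combination than with HDACi (-1.81; interaction -1.50 ± 0.16, adjusted p = 2.45e-05, quantile -1.40).

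TFPI2, an inhibitor of serine proteases, measured 4.64, 4.50 and 4.49 in vehicle, 4.64, 4.38 and 4.38 with MAPKi, 6.07, 6.20 and 6.24 with HDACi, and 4.27, 4.63 and 4.63 with the combination (-1.58 ± 0.17, adjusted p = 2.45e-05, quantile -1.46). The HDACi arrays stood apart, and the other 3 groups overlapped. USP17L15 departed by -1.82 ± 0.30 (adjusted p = 0.00102), but it belongs to a family of near-identical copies whose signals the array may not separate. All 38 genes of this shape were lower with the combination than with HDACi, in a comparison that called 72.6% of all genes lower and 73.3% either way (after quantile normalization 30 of 38, against 11.6% and 23%). Of the 10 measured genes of a list of inflammatory secretion, 4 departed (40%, against 7.27% of all genes), all downward. They were CXCL8, MMP13, MMP1 and CCL2, a monocyte chemokine (-0.69 ± 0.14, adjusted p = 0.00551, quantile -0.66). Unlike CXCL8, MMP13 and MMP1, CCL2 had a shape that differed between the scales, and HDACi changed it by 0.40. After quantile normalization its change was 0.99 with MAPKi, 0.79 with HDACi and 1.12 with the combination. The median interaction of the list was -0.42, against -0.05 over all genes. CXCL3 did not pass (-0.08 ± 0.28, adjusted p = 0.913), nor did ICAM1, an adhesion molecule (-0.17 ± 0.17, adjusted p = 0.632).

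The promoters of CXCL8 and TFPI2 are shown because both hold the AP-1 motif TGANTCA and both genes were raised by HDACi but not by the combination. They are the 250 bases before the gene start in RefSeq on GRCh38.p14 (chr4:73740319-73740568, plus strand; chr7:93890754-93891003, minus strand). Capitals mark matches to TGANTCA and, in CXCL8, to the kappa B motif GGAATTTCC.
CXCL8: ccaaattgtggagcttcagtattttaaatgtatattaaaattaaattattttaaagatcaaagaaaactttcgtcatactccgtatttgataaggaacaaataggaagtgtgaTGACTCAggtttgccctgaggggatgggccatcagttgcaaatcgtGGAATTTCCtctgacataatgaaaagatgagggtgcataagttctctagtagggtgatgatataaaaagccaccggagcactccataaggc
TFPI2: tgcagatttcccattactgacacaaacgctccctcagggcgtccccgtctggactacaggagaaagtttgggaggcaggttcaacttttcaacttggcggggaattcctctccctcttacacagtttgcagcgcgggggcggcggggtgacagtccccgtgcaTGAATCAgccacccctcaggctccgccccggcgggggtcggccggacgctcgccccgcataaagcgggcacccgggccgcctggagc
The AP-1 match ended 131 bases before the start of CXCL8 and 81 bases before that of TFPI2, and the kappa B match ended 83 bases before the start of CXCL8. On either strand TGANTCA occurred in 5 of 23 promoters of this shape (21.7%) and in 5.12% of 10571 promoters of genes tested. GGAATTTCC occurred in 0.378% of all of them. A match is a string of letters and does not show that a factor binds there.

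In 59 departing genes each drug gave a rise and the combination stayed below their sum. On the deposited scale the combination was above MAPKi in 20 of them and above HDACi in 7, and after quantile normalization in 32 and 47, so whether it exceeded the single drugs depends on scaling. ALCAM, a cell adhesion molecule, measured 5.79, 5.70 and 5.76 in vehicle, 8.33, 8.21 and 8.06 with MAPKi, 7.81, 8.02 and 7.76 with HDACi, and 8.03, 8.19 and 8.08 with the combination. All treated arrays lay above vehicle, and the combination overlapped MAPKi and lay just above HDACi (-2.22 ± 0.15, adjusted p = 3.58e-07, quantile -1.82). After quantile normalization its combination change was 3.30, above the 2.93 with MAPKi and 2.19 with HDACi. TMEM47, a membrane protein of cell junctions, was at 6.54, 6.51 and 6.19 in vehicle, 8.60, 8.78 and 8.69 with MAPKi, 8.60, 8.73 and 8.73 with HDACi, and 8.41, 8.61 and 8.32 with the combination (-2.52 ± 0.17, adjusted p = 3.09e-07, quantile -2.25). Its 3 treatments gave nearly the same level, which lay 2.04 to 2.28 above vehicle.

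SIPA1L2, a regulator of Rap GTPases, went further and fell back: 8.15, 7.78 and 8.12 in vehicle, 9.61, 9.5 and 9.41 with MAPKi, 8.87, 8.89 and 8.87 with HDACi, and 8.43, 8.51 and 8.37 with the combination (-1.93 ± 0.16, adjusted p = 2.41e-06, quantile -1.86). The combination arrays lay below both single treatments and above vehicle, although after quantile normalization they lay above HDACi. The transcription factor KLF5 departed by -1.87 ± 0.15 (adjusted p = 2.1e-06, quantile -1.72), with changes of 1.32 with MAPKi, 1.39 with HDACi and 0.84 with the combination. LOC653513, of no assigned function, departed by -2.70 ± 0.25 (adjusted p = 7.23e-06). FOS, the AP-1 subunit, measured 6.44, 6.57 and 6.86 in vehicle, 7.50, 7.43 and 7.36 with MAPKi, 7.15, 7.20 and 7.17 with HDACi, and 6.51, 6.81 and 6.50 with the combination, which overlapped vehicle (-1.38 ± 0.17, adjusted p = 0.000107). After quantile normalization the FOS change with the combination was 1.02, against 1.41 with MAPKi, so its return to the vehicle level depends on scaling.

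Of 10 measured genes of the BH3-only class and other apoptosis effectors, which oppose BCL2, 3 departed (30%, against 7.27% of all genes). All 3 went downward, with different shapes. BCL2L11, which encodes BIM, measured 7.43, 7.16 and 7.30 in vehicle, 8.23, 8.22 and 8.22 with MAPKi, 8.29, 8.43 and 8.14 with HDACi, and 8.28, 8.47 and 8.17 with the combination. Each treatment raised it and the 3 treated groups overlapped (interaction -0.91 ± 0.16, adjusted p = 0.00187, quantile -0.75). After quantile normalization the combination lay above both single treatments, at 2.20 over vehicle against 1.66 and 1.30. BMF rose with MAPKi by 1.77 ± 0.11 and lay lower with the combination than with MAPKi (-0.95; interaction -1.06 ± 0.16, adjusted p = 0.000547, quantile -0.80). PMAIP1, which encodes NOXA, rose by 1.26 ± 0.10 with HDACi and fell by 1.00 with MAPKi, and departed by -0.76 ± 0.14 (adjusted p = 0.00236, quantile -0.60). Of the other members, BAD did not pass (0.04 ± 0.18). On the survival side BCL2 departed upward, 1 of 5 measured genes (20%), while MCL1 did not pass (0.14 ± 0.15, adjusted p = 0.693).

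The largest group consisted of genes that each drug lowered and that the combination lowered by less than the sum. Over its 143 genes the median change was -1.95 with MAPKi, -1.16 with HDACi and -2.29 with the combination, against a median sum of -3.14. On the deposited scale the combination could not be told from MAPKi in 78 of them, and lay below it in 60 and above it in 5. The combination lay below HDACi in 137. Of all genes 40.6% lay below MAPKi, 8.68% above it and 72.6% below HDACi. After quantile normalization the combination lay below MAPKi in 23, above it in 38 and below HDACi in 72. The shares of all genes were then 23.5%, 19.9% and 11.6%, so its place against MAPKi depends on scaling. FST, which binds and blocks activin, measured 9.60, 9.33 and 9.53 in vehicle, 6.34, 5.83 and 6.13 with MAPKi, 6.67, 6.75 and 6.86 with HDACi, and 5.73, 6.06 and 6.09 with the combination. The combination overlapped MAPKi, and both lay below HDACi (2.59 ± 0.19, adjusted p = 1.24e-06, quantile 2.49). EDN1, the vasoactive peptide endothelin 1, measured 7.55, 7.41 and 7.40 in vehicle, 4.26, 4.26 and 4.15 with MAPKi, 5.85, 6.05 and 5.87 with HDACi, and 4.81, 4.75 and 4.94 with the combination (2.13 ± 0.14, adjusted p = 3.58e-07, quantile 1.91). Here the combination lay above MAPKi without overlap.

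REM1, a Ras-like GTPase, departed by 1.98 ± 0.19 and WNK4, a kinase that regulates ion transport, by 2.00 ± 0.19 (adjusted p = 9.67e-06 and 9.96e-06). CEMIP, which helps break down hyaluronan, departed by 1.74 ± 0.16, and TMEM158 by 1.69 ± 0.14 (adjusted p = 7.36e-06 and 2.77e-06). For many genes of this shape the additive expectation was itself a dim level. It lay below the 40th percentile of gene means in 95 of the 143 and within the range of the dimmest of the 10 bins in 18, and the part of a lower limit of detection was not tested. The sign of the departure held on linear intensities in all 143.

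ERK output genes departed in part. Of 15 measured, 5 departed (33.3%, against 7.27% of all genes), all upward, with a median interaction of 0.66 (quantile 0.44). SPRY4, which dampens signals from growth factor receptors, measured 11.26, 11.03 and 11.21 in vehicle, 5.18, 5.01 and 5.09 with MAPKi, 9.58, 10.08 and 9.87 with HDACi, and 5.04, 5.05 and 5.10 with the combination. HDACi alone changed it by -1.33 ± 0.12, and the combination overlapped MAPKi (interaction 1.30 ± 0.17, adjusted p = 0.000187, quantile 1.16). Its relative SPRY2 (1.61 ± 0.17) and the ETS factors ETV4 (1.44 ± 0.17) and ETV1 (1.21 ± 0.22) departed too (adjusted p = 2.45e-05, 5.67e-05 and 0.00197), as did IER3, an early response gene (1.24 ± 0.17, adjusted p = 0.000216). SPRY4, SPRY2 and ETV4 had falls with both drugs on both scales, IER3 a MAPKi fall that HDACi weakened, and ETV1 a shape that depended on the scale. DUSP6, the ERK phosphatase, did not pass (0.67 ± 0.24, adjusted p = 0.116), nor did ETV5 (0.66 ± 0.20, adjusted p = 0.0627) or DUSP4 (-0.22 ± 0.16, adjusted p = 0.508). CCND1, which encodes cyclin D1, passed on the quantile scale alone (0.31 ± 0.15, adjusted p = 0.27, quantile 0.44, adjusted p = 0.02). FOSL1 passed on the deposited scale alone (0.78 ± 0.21, adjusted p = 0.0327, quantile 0.47, adjusted p = 0.304). MYC did not pass (0.28 ± 0.18, adjusted p = 0.422).

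Most DNA replication genes departed. Of 19 measured, 12 did so, all upward (63.2%, against 7.27% of all genes), with a median interaction of 0.81 (quantile 0.82). The median change was -2.36 with MAPKi, -1.26 with HDACi and -2.54 with the combination, although HDACi changed some members by less than 0.5, such as RRM2 (-0.49), CDC6 (-0.46) and PCNA (-0.28). MCM2, a subunit of the helicase that unwinds origins, measured 9.20, 8.89 and 9.31 in vehicle, 6.63, 6.76 and 6.52 with MAPKi, 7.43, 7.40 and 7.42 with HDACi, and 6.43, 6.27 and 6.41 with the combination (1.45 ± 0.16, adjusted p = 4.13e-05, quantile 1.43). On the deposited scale the combination lay just below MAPKi without overlap, by a difference that did not pass (-0.26, adjusted p = 0.073). After quantile normalization the MCM2 change was -1.56 with the combination and -1.70 with MAPKi. MCM5 (1.37 ± 0.18), GINS1 of the GINS helicase complex (1.33 ± 0.14), CDC45, which activates the helicase (1.26 ± 0.16), and MCM10 (1.25 ± 0.16) departed by similar amounts. Licensing factor CDT1 measured 8.26, 7.89 and 8.17 in vehicle, 6.21, 6.28 and 6.07 with MAPKi, 6.85, 6.96 and 6.95 with HDACi, and 5.96, 6.44 and 6.24 with the combination (1.21 ± 0.18, adjusted p = 0.000547). Its combination arrays overlapped MAPKi on the deposited scale, but after quantile normalization the combination lay above MAPKi (0.42, adjusted p = 0.00431). MCM7 departed by 1.18 ± 0.19 (adjusted p = 0.000817), RRM2 and TYMS of nucleotide synthesis by 0.95 ± 0.15 and 0.97 ± 0.15. MCM6 did not pass (0.32 ± 0.15, adjusted p = 0.22). PCNA (0.35 ± 0.14, adjusted p = 0.154, quantile 0.38, adjusted p = 0.0192) and MCM4 (0.42 ± 0.14, adjusted p = 0.0942, quantile 0.52, adjusted p = 0.00309) passed on the quantile scale alone.

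**Figure D4:**
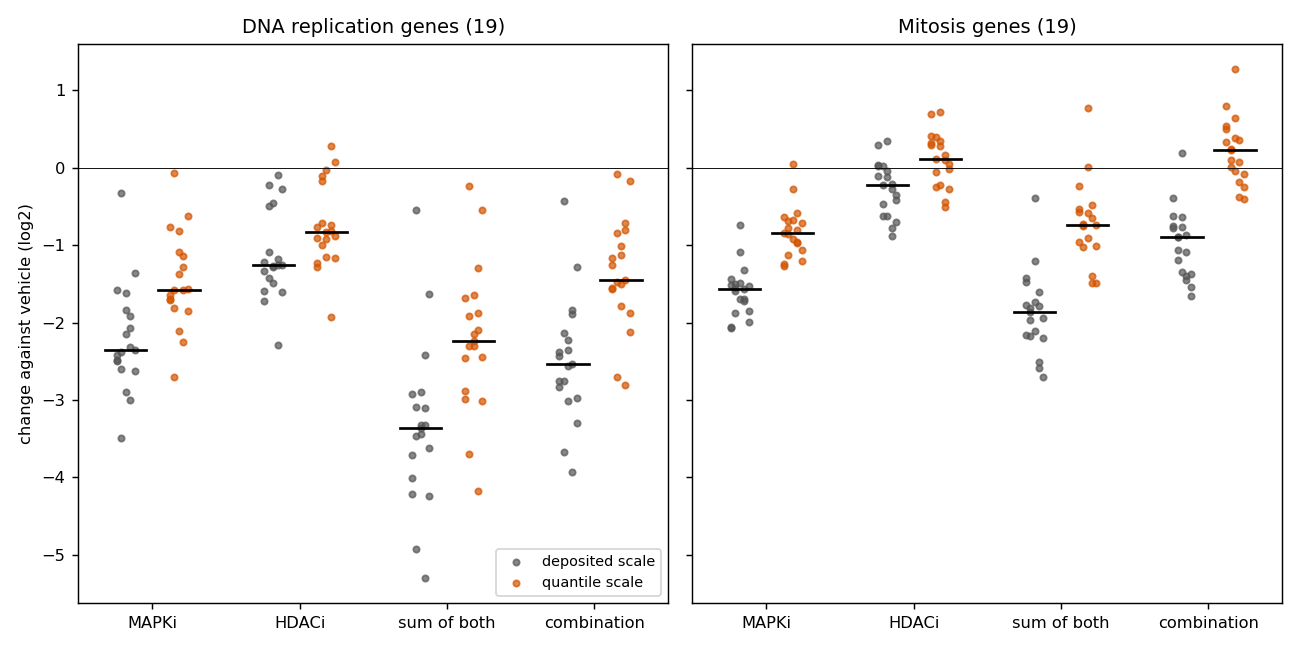
Change against vehicle (y axis, log2) of each measured DNA replication gene (left, 19 genes) and mitosis gene (right, 19 genes) with MAPKi, with HDACi, as the sum of both and with the combination, on the deposited (grey) and quantile (orange) scales; bars are medians. For DNA replication the combination (median -2.54, deposited) lies near MAPKi (-2.36), and for mitosis it lies above MAPKi (-0.90 against -1.57).

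The promoters of CDT1 and MCM7 are shown because they hold letters of the E2F motif, which occurs before many S phase genes (RefSeq, GRCh38.p14, the 250 bases before the start; chr16:88803539-88803788, plus strand; chr7:100101398-100101647, minus strand). Capitals mark matches on either strand to TTTCCCGC, TTTGGCGC, TTTCGCGC or TTTGCCGC.
CDT1: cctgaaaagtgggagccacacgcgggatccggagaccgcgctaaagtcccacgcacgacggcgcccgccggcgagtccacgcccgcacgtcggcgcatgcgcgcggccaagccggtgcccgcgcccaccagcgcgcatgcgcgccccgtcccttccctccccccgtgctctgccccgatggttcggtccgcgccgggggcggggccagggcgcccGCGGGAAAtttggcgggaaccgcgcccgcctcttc
MCM7: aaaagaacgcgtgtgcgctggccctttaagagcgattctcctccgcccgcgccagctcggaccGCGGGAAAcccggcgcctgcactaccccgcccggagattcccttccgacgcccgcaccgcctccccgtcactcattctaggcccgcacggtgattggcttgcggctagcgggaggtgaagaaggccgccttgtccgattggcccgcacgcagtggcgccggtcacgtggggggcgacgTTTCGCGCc
The match in CDT1 lies 35 to 28 bases before the start, and those in MCM7 lie 187 to 180 and 9 to 2 bases before it. Such a match occurred in 3.84% of all promoters, in 17 of 116 promoters of falls that did not add (14.7%) and in 4 of 11 departing DNA replication genes (36.4%).

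In 99 genes departing upward, MAPKi gave a fall and HDACi alone a change of less than 0.5. Of these, 92 were higher with the combination than with MAPKi, where 8.68% of all genes were (after quantile normalization 99, against 19.9%). Their median change was -1.87 with MAPKi, -0.22 with HDACi and -1.23 with the combination. ELOVL2, an elongase of polyunsaturated fatty acids, measured 9.13, 9.03 and 9.02 in vehicle, 5.43, 5.66 and 5.42 with MAPKi, 8.59, 8.63 and 8.65 with HDACi, and 7.28, 7.32 and 7.36 with the combination. The combination lay 1.81 above MAPKi, and the 4 groups did not overlap (2.25 ± 0.14, adjusted p = 2.47e-07, quantile 2.35). TFAP2C, a transcription factor of the AP-2 family, measured 10.90, 10.74 and 10.88 in vehicle, 7.20, 7.25 and 7.22 with MAPKi, 10.44, 10.47 and 10.57 with HDACi, and 8.66, 8.79 and 8.57 with the combination (1.79 ± 0.14, adjusted p = 1.57e-06, quantile 1.92). It too lay between MAPKi and the other groups. BCL2, the survival protein, measured 7.17, 6.97 and 7.31 in vehicle, 4.6, 5.0 and 4.50 with MAPKi, 6.96, 6.92 and 6.90 with HDACi, and 5.27, 5.54 and 5.75 with the combination (1.04 ± 0.21, adjusted p = 0.00391, quantile 0.95). LIFR, a cytokine receptor, departed by 0.92 ± 0.15 (adjusted p = 0.000784).

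Mitosis genes had the highest share of departing members among lists with at least 5 measured genes. Of 19 measured, 18 departed, all upward (94.7%), with a median interaction of 0.85 (quantile 0.94). The exception, AURKA, passed on the quantile scale alone (0.39 ± 0.15, adjusted p = 0.145, quantile 0.49, adjusted p = 0.029). With the combination, 15 of the 19 were higher than with MAPKi on the deposited scale and 19 on the quantile scale, and 0 were lower on either. Against HDACi, 17 were lower on the deposited scale and 0 on the quantile scale, where 5 were higher, so the place of the combination against HDACi depends on scaling. The same holds against vehicle, where the median change was -0.90 (deposited) and 0.23 (quantile). AURKB, a kinase of chromosome segregation, measured 9.13, 8.87 and 9.34 in vehicle, 6.95, 7.28 and 6.95 with MAPKi, 8.96, 9.01 and 9.04 with HDACi, and 8.23, 8.46 and 8.33 with the combination. MAPKi lowered it, and with HDACi added the level was 1.28 ± 0.13 higher (interaction 1.39 ± 0.18, adjusted p = 0.000172, quantile 1.46). PLK1, another mitotic kinase, measured 10.45, 10.31 and 10.50 in vehicle, 8.96, 9.04 and 8.61 with MAPKi, 9.68, 9.79 and 9.94 with HDACi, and 9.35, 9.63 and 9.59 with the combination (1.27 ± 0.18, adjusted p = 0.000318, quantile 1.26). The combination lay between MAPKi and HDACi without overlap. CDK1 (1.03 ± 0.18), cyclins CCNB1 (0.77 ± 0.14) and CCNA2 (1.11 ± 0.15), topoisomerase TOP2A (0.85 ± 0.16) and the proliferation marker MKI67 (0.74 ± 0.14) departed the same way, with adjusted p from 0.000227 to 0.00301.

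The promoters of PLK1 and of CDC20, an activator of the anaphase-promoting complex, are shown because they hold the pair of motifs known from genes of late cell cycle (RefSeq, GRCh38.p14, the 250 bases before the start; chr16:23678639-23678888, plus strand; chr1:43358731-43358980, plus strand). Capitals mark CCAAT and TTTGAA, the cell cycle genes homology region (CHR), on either strand.
PLK1: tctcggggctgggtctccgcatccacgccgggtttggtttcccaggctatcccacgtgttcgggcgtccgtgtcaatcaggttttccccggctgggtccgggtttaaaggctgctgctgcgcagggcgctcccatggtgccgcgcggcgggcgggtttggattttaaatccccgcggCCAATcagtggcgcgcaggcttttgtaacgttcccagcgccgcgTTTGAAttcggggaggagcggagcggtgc
CDC20: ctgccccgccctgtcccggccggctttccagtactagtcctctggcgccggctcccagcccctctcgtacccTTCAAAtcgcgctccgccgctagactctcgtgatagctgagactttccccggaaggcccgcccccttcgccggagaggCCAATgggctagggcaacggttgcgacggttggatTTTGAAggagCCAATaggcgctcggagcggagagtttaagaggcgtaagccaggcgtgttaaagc
In PLK1 the CCAAT box lies 73 to 69 and the CHR 29 to 24 bases before the start. TTTGAA occurred in 10 of 16 promoters of departing mitosis genes (62.5%), in 18 of 82 of MAPKi falls that HDACi weakened (22%) and in 10.4% of all promoters. CCAAT occurred in 14 of 16 (87.5%), 46 of 82 (56.1%) and 34.4%. The E2F letters named above occurred in 0 of the 16. CDC20 itself measured 9.59, 9.53 and 9.71 in vehicle, 8.10, 8.35 and 8.06 with MAPKi, 9.48, 9.76 and 9.66 with HDACi, and 9.15, 9.28 and 9.23 with the combination (1.03 ± 0.16, adjusted p = 0.000602).

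Some genes moved in opposite directions with MAPKi and HDACi. The epidermal growth factor receptor EGFR measured 8.09, 7.82 and 7.94 in vehicle, 5.54, 5.77 and 5.61 with MAPKi, 8.45, 8.63 and 8.43 with HDACi, and 6.82, 7.0 and 6.95 with the combination. The combination lay 1.28 ± 0.11 above MAPKi, higher than the sum (0.72 ± 0.15, adjusted p = 0.00725, quantile 0.83). Against vehicle it was lower (-1.03), but after quantile normalization the change was 0.23. NPTX2, a secreted synaptic pentraxin, departed by 1.00 ± 0.15 (adjusted p = 0.000453), and JUP, a junction protein, by 0.92 ± 0.18 (adjusted p = 0.0033). Of the 13 genes with this shape, only 3 kept the sign on linear intensities, and EGFR and NPTX2 were not among them. ANKRD1, a nuclear ankyrin repeat protein, was the reverse case: 4.51, 4.74 and 4.14 in vehicle, 3.53, 3.60 and 3.46 with MAPKi, 7.45, 7.11 and 7.05 with HDACi, and 3.34, 4.14 and 3.62 with the combination. HDACi raised it, MAPKi lowered it, and the combination overlapped MAPKi (-2.58 ± 0.26, adjusted p = 1.48e-05, quantile -2.45). IL24, a cytokine, departed by -1.74 ± 0.26 in the same shape (adjusted p = 0.0005). TREM1, a receptor that amplifies inflammatory signals in myeloid cells, had the largest negative interaction after ANGPTL7, with a shape that differed between the scales. It measured 5.34, 5.14 and 5.20 in vehicle, 4.76, 4.77 and 4.44 with MAPKi, 8.66, 8.71 and 8.74 with HDACi, and 4.68, 5.11 and 4.35 with the combination (-3.43 ± 0.22, adjusted p = 2.7e-07, quantile -3.33), and the HDACi arrays stood above all others.

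Genes in which neither drug alone reached 0.5 and the combination lay below the sum had interactions between -1.15 and -0.47, and their number moved most when an array was left out. The 64 genes had median changes of -0.30 with MAPKi, -0.04 with HDACi and -1.03 with the combination, but after quantile normalization the last was 0.01 against 0.37 and 0.23. On the deposited scale the combination lay below both single treatments in 60 of them, where 40.6% of all genes lay below MAPKi and 72.6% below HDACi. After quantile normalization it lay below MAPKi in 44 (23.5% of all genes) and below HDACi in 24 (11.6%). ACTR6, an actin-related protein of chromatin remodelling, measured 7.64, 7.51 and 7.22 in vehicle, 7.30, 7.20 and 6.82 with MAPKi, 7.51, 7.40 and 7.45 with HDACi, and 6.04, 5.91 and 5.91 with the combination (-1.15 ± 0.19, adjusted p = 0.00102, quantile -1.18). Its 3 combination arrays lay below all others. MTM1, a lipid phosphatase, departed by -1.01 ± 0.16 (adjusted p = 0.000697), and WBP4, a splicing factor, by -0.89 ± 0.18 (adjusted p = 0.00534). Over all departing genes, the combination lay below both single treatments in 443 and above both in 11, which became 79 and 95 after quantile normalization. The count of 64 was 21 without vehicle replicate 2, 29 and 33 without MAPKi replicates 2 and 1, 35 without vehicle replicate 3 and 36 without HDACi replicate 2.

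On the deposited scale few departing genes lay above both single treatments with the combination. SOX2, a stem cell transcription factor, measured 6.27, 6.75 and 6.58 in vehicle, 6.12, 6.17 and 6.28 with MAPKi, 7.29, 7.29 and 7.27 with HDACi, and 7.70, 7.88 and 7.78 with the combination. HDACi raised it, and the combination lay above all other arrays (0.84 ± 0.17, adjusted p = 0.00402, quantile 1.12). Its change with MAPKi was -0.34 on the deposited scale and 0.24 after quantile normalization. Its relative SOX3 had its highest values with the combination: 4.61, 5.01 and 4.44 in vehicle, 4.38, 4.67 and 3.84 with MAPKi, 4.83, 4.64 and 4.54 with HDACi, and 5.65, 5.17 and 5.13 with the combination (1.04 ± 0.28, adjusted p = 0.0291, quantile 1.25). SOX3 did not pass when any of vehicle replicate 2, MAPKi replicate 3, HDACi replicate 2 or 3 or combination replicate 1 was left out, with interactions of 0.81 to 1.03. IRF4, a transcription factor of the pigment and lymphoid lineages, departed by 0.63 ± 0.17 (adjusted p = 0.034, quantile 0.86). In 9 genes neither drug alone reached 0.5 and the combination lay above the sum. Among them were IRF4, MTARC1 (0.80 ± 0.16, adjusted p = 0.00523) and NXF3 (0.78 ± 0.18, adjusted p = 0.0111). On the deposited scale 7 of the 9 lay above both single treatments. The additive expectation lay below the 40th percentile of gene means in all 9, and the part of low signal was not tested. The number of 9 became 4 without MAPKi replicate 2 and 5 without MAPKi replicate 3 or HDACi replicate 2.

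DNA repair genes that departed did so upward. Homologous recombination, which copies from the sister chromatid, had 5 of 17 measured (29.4%, against 7.27% of all genes): EXO1 (0.94 ± 0.15), BRIP1 (0.92 ± 0.15), EME1 (0.91 ± 0.17), RAD54L (0.77 ± 0.18) and XRCC2 (0.59 ± 0.16), with adjusted p from 0.00111 to 0.0349. EXO1, an exonuclease, measured 8.82, 8.54 and 8.79 in vehicle, 5.69, 5.78 and 5.50 with MAPKi, 8.12, 8.04 and 8.19 with HDACi, and 6.03, 5.99 and 5.96 with the combination, which lay 0.34 above MAPKi. EME1 did not pass when its probe sets were averaged (0.60). Of 14 base excision repair genes 2 departed (14.3%): NEIL3 (1.01 ± 0.16, adjusted p = 0.000995) and UNG (0.78 ± 0.16, adjusted p = 0.00425), both glycosylases. In non-homologous end joining 0 of 6 departed, with XRCC5 at 0.05 ± 0.15, XRCC6 at -0.02 ± 0.16 and TP53BP1 at -0.25 ± 0.18. TP53BP1 passed on the quantile scale alone (-0.43, adjusted p = 0.0422). For the Ku subunit gene XRCC6 the sum of single changes was -2.18 and the combination -2.20. In mismatch repair 0 of 4 departed (PMS2, -0.01 ± 0.16), and MGMT, which removes alkyl groups from guanine, did not pass (-0.14 ± 0.15). UBE2T was the single measured gene of the Fanconi list of 11 used here (0.50 ± 0.13, adjusted p = 0.0288). It did not pass without vehicle replicate 3, MAPKi replicate 1 or 3, HDACi replicate 1 or 2 or combination replicate 1 or 3 (0.45 to 0.51).

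Lineage genes and receptors departed in both directions. Of 15 melanocyte genes, 3 departed (20%, against 7.27% of all genes), all downward. MITF, the master regulator of the lineage, measured 6.18, 6.08 and 6.01 in vehicle, 6.32, 6.25 and 6.05 with MAPKi, 5.89, 5.90 and 5.58 with HDACi, and 5.11, 5.32 and 4.94 with the combination (-0.79 ± 0.18, adjusted p = 0.0105, quantile -0.80). On the deposited scale its combination arrays lay below the other 9. After quantile normalization the MITF change was 0.61 with MAPKi, -0.15 with HDACi and -0.34 with the combination. PAX3 (-0.77 ± 0.17, adjusted p = 0.0107) and the melanosome protein PMEL (-0.72 ± 0.20, adjusted p = 0.0299) departed too, though PMEL did not pass without vehicle, MAPKi or HDACi replicate 2 or 3 or combination replicate 1 or 3 (-0.74 to -0.61). SOX10 passed on the quantile scale alone (0.28 ± 0.16, adjusted p = 0.359, quantile 0.37, adjusted p = 0.0476). MLANA did not pass (-0.11 ± 0.15, adjusted p = 0.773). Among 18 receptor tyrosine kinases 44.4% departed. AXL (0.91 ± 0.15), EGFR, FGFR1 (0.64 ± 0.17) and IGF1R (0.61 ± 0.16) departed upward, and FGFR2 (-1.54 ± 0.15), MERTK (-0.81 ± 0.16), FGFR3 (-0.77 ± 0.21) and ROR1 (-0.71 ± 0.18) downward. FGFR2 measured 6.01, 5.89 and 5.85 in vehicle, 8.02, 7.89 and 7.82 with MAPKi, 6.29, 6.28 and 6.36 with HDACi, and 6.67, 6.94 and 6.70 with the combination. The combination lay between MAPKi and HDACi, with a difference from MAPKi of -1.14. ERBB3, which HDACi lowered, did not pass (0.01 ± 0.16).

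**Figure D5:**
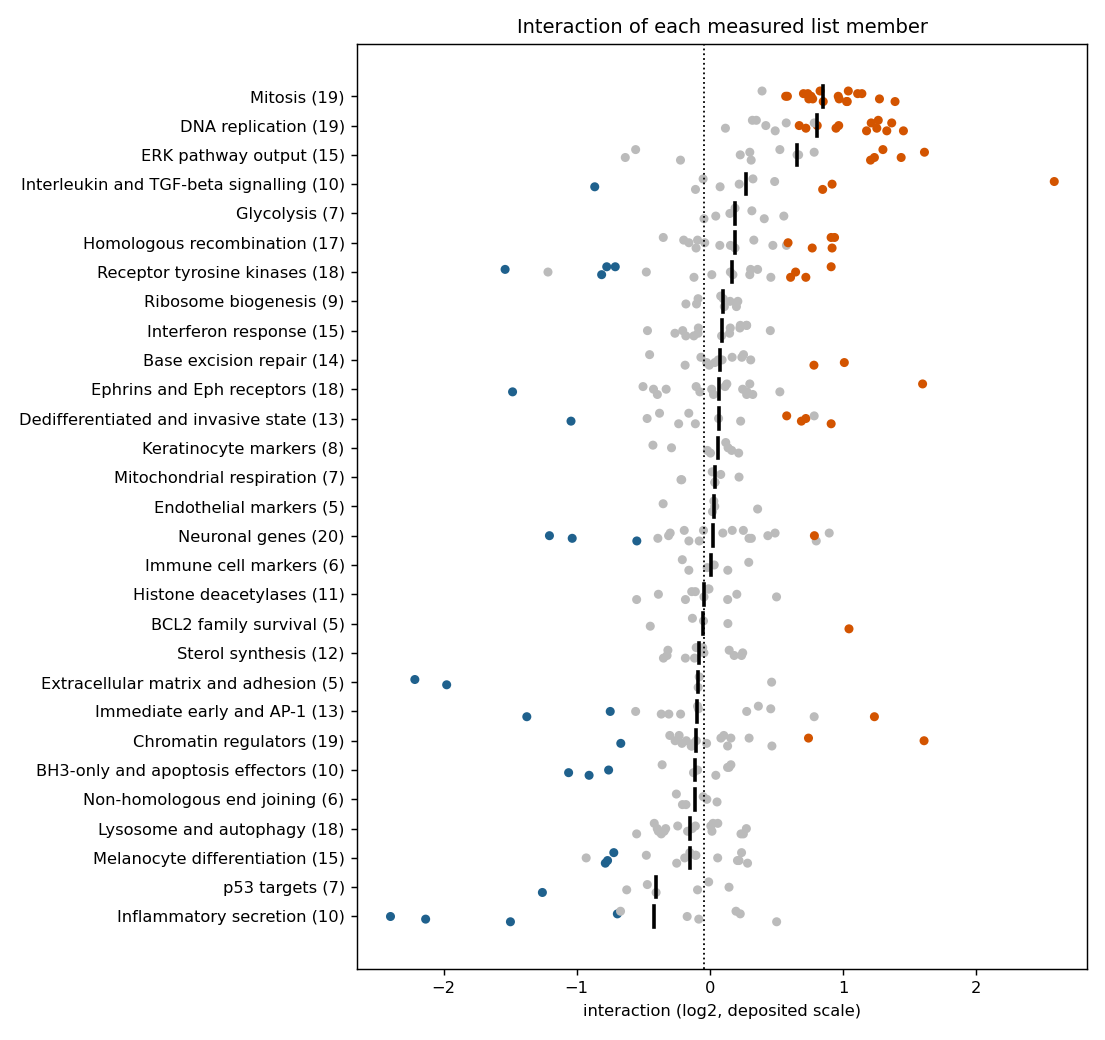
Interaction (x axis, log2, deposited scale) of each measured member of the gene lists with at least 5 measured genes (number in parentheses); orange and blue points departed upward and downward, grey points did not, bars are list medians and the dotted line is the median of all genes (-0.05). Mitosis (median 0.85) and DNA replication (0.81) lie farthest to the right, and inflammatory secretion (-0.42) and p53 targets (-0.40) toward the left.

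The remaining lists ranged from 0 to 40% departing, against 7.27% of all genes. In the dedifferentiated and invasive state (38.5%), 4 of 13 departed upward (AXL, EGFR, ZEB1 and NGFR) and CCN2, a matricellular protein, downward (-1.04 ± 0.14, adjusted p = 0.000247). Of 20 neuronal genes (20%), VGF departed upward (0.79 ± 0.18) and CALB2 (-1.21 ± 0.14), STMN2 (-1.03 ± 0.26) and SYT11 (-0.55 ± 0.15) downward, and STMN2 did not pass without vehicle replicate 2 (-0.97). Of 18 ephrins and Eph receptors (11.1%), EFNA5 departed by 1.6 ± 0.16 and EFNB2 by -1.48 ± 0.20 (adjusted p = 1.73e-05 and 0.000257). Among 19 chromatin regulators (15.8%), PHF19 (1.61 ± 0.17) and UHRF1 (0.74 ± 0.17) departed upward and TET1 (-0.67 ± 0.15) downward. GDF15, a p53 target, departed by -1.26 ± 0.17 (1 of 7), and RBL2, of 4 cell cycle brakes, by -0.57 ± 0.15. RBL2 did not pass without vehicle replicate 2, MAPKi or HDACi replicate 1 or 2 or combination replicate 1 or 3 (-0.57 to -0.48). In the interleukin and TGF-beta list of 10 (40%), BMP4 (0.85 ± 0.18) joined FST and LIFR, and SMAD6 departed downward (-0.86 ± 0.15). In the lists of histone deacetylases (11 measured), lysosome and autophagy (18), interferon response (15), sterol synthesis (12), glycolysis (7), ribosome biogenesis (9) and mitochondrial respiration (7), 0 genes departed, against 7.27% of all genes. Each list alone is too small to tell 0 from that share, and the lists were not pooled or tested. The targeted enzyme HDAC1 did not pass (-0.18 ± 0.15, adjusted p = 0.546).

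Among 1020 microRNA genes, 19 departed (1.86%), against 8.39% of protein-coding and 3.01% of long non-coding RNA genes. The array probes the precursor or its host transcript, so these values do not measure the mature forms. MIR25 lies in the replication gene MCM7 and had its shape, with 7.51, 7.27 and 7.33 in vehicle, 5.94, 6.03 and 5.96 with MAPKi, 6.25, 6.43 and 6.37 with HDACi, and 5.69, 5.63 and 5.51 with the combination (0.65 ± 0.14, adjusted p = 0.00876, quantile 0.54). MIR21 measured 8.39, 7.96 and 8.12 in vehicle, 6.94, 7.18 and 7.0 with MAPKi, 8.27, 8.44 and 8.43 with HDACi, and 6.56, 6.58 and 6.23 with the combination (-0.81 ± 0.18, adjusted p = 0.0108, quantile -0.79). On the deposited scale its combination arrays lay below all others. After quantile normalization the combination could not be told from MAPKi (-0.17, adjusted p = 0.225). MIR100 departed by 1.08 ± 0.18 (adjusted p = 0.00125) but was dim, with means of 3.87 in vehicle and 2.33 to 2.63 in the treated groups. Its additive expectation of 1.25 lay below the lowest mean of any gene (1.54), and the part of a lower limit of detection was not tested. MIR103A2 departed by -0.75 ± 0.20 (adjusted p = 0.0252). MIR635 belonged to the class in which neither drug alone reached 0.5 (-0.99 ± 0.20, adjusted p = 0.00504). The mature sequences of these 5 genes' main products are given to identify them, from RefSeq on GRCh38.p14 with the seed (bases 2 to 8) in capitals (chr7:100093571-100093592, minus strand; chr17:59841273-59841294, plus strand; chr11:122152275-122152296, minus strand; chr20:3917541-3917563, plus strand; chr17:68424511-68424533, minus strand).
hsa-miR-25-3p: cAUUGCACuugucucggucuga
hsa-miR-21-5p: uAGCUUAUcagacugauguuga
hsa-miR-100-5p: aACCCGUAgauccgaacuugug
hsa-miR-103a-3p: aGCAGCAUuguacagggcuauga
hsa-miR-635: aCUUGGGCacugaaacaaugucc
The 5 seeds differ from each other.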

How the data were processed

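Gene expression was measured on 12 single-colour Affymetrix arrays. The deposited values are linear intensities per probe set, which the authors obtained by RMA (Transcriptome Analysis Console), per the submitters' processing notes. Versions, genome build and scaling between arrays: not given in the sources used here. Per the labels' protocols, samples carried an ERCC spike-in from the lysis step, and its use is not stated. Of 29592 rows, 14783 were linked to 1 gene symbol and 0 to several; the brightest row stood for each of 169 genes with more than 1 row, which gave 14599 genes.

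The log2 of each value was fitted with limma 3.58.1 (lmFit, contrasts.fit, eBayes) in R 4.3.3 with a mean per group over all 12 arrays (8 residual and 7.68 prior degrees of freedom). The threshold was an adjusted p of 0.05 (Benjamini-Hochberg over 14599 genes), and a gene departed where it also passed with the same sign after quantile normalization. The number of arrays limits the precision. No filter on dim genes was used. Genes were named by rule: the 10 largest departures in each direction, the 4 largest of each shape, up to 3 departing genes and 1 other per list, and fixed genes with a named row; genes chosen after their values were seen were CDC20, CDC6, KDR, CDT1, MCM7, MCM4, MCM6, MCM10, CDC45, PCNA, RRM2, TYMS, CDK1, CCNA2, CCNB1, TOP2A, AURKA, KLF5, IRF4, SOX2, ETV1, CCL2, ICAM1, FGFR1, FGFR3, IGF1R, MERTK, ROR1, NGFR, ZEB1, RAD54L, XRCC2, SMAD6, SYT11, MIR21, MIR25, MIR100 and MIR103A2. The members and the 35 lists (366 of 615 memberships measured) were chosen with earlier results of these data known. Sequences come from RefSeq tables of GRCh38.p14, which matched 10571 of the genes tested (859 departing) to a promoter and all 19 departing microRNA genes to a mature sequence; motifs were chosen with results known and searched on both strands.

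Alternatives were other scaling between arrays, no dim genes, trend and robust variance, mean of probe sets, all probe sets as rows, the replicate number as a block, each array left out, and other thresholds for shapes. On simulated data with the interaction known, for 14599 genes, the fit called 18% of genes with an interaction of 0.5, 82% at 1, 66% at -1 and 100% at 2, with 8 false calls. Plots used Python 3.11.15 and matplotlib 3.10.9.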

Additional observations from a re-analysis of the deposited data

Results flagged for a closer look

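Rows with no gene name here were outside the comparisons above, and 621 of the 14809 departed on both scales (4.19%, 261 upward and 360 downward), against 918 of the named rows in the same fit (6.21%). This counts as signal in data that the main comparisons did not use. The unnamed rows were dimmer, with a median log2 intensity of 4.91 against 6.03. The largest were probe set 17102559 (interaction 2.46), 16996017 (2.41), 17059355 (-3.23) and 17049676 (-3.12). The last had group means of 5.64 with vehicle, 4.45 with MAPKi, 9.03 with HDACi and 4.72 with the combination. Groups of 3 arrays are too small for the check on single outlying samples.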

How the results depend on the processing

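Departing genes numbered 1062 and ranged from 776 (without vehicle replicate 3) to 1041 (without vehicle replicate 1) when arrays were left out. The upward count ranged from 340 to 474 and the downward count from 426 to 665, and without vehicle replicate 2 upward genes (474) outnumbered downward ones (466); on the deposited scale alone the ranges were 358 to 504 and 483 to 905. Without the dimmest 40% of genes 1427 departed (941 shared with the 1062), with trend and robust variance 1550 (1046 shared), and with averaged probe sets 1053 (1050 shared). Positive genes on the deposited scale (462) became 907 after quantile normalization, 854 with array medians subtracted and 871 with quantile normalization and the replicate block. Negative genes (706) became 1128 where the additive expectation had to lie above the 40th percentile, with fewer genes tested (7535). Replicate numbers did not pair the arrays: same-number deviations had r from -0.106 to 0.121 across genes (median 0.0324, other pairs -0.0111), and the closest array had the same number for 7 of 12 arrays. With the replicate block 448 genes were positive and 711 negative, and 1033 departed (986 shared). 

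Of values for named genes under the alternatives, 2371 kept their direction and side of the threshold, 38 lost and 13 gained it, and 0 reversed. The median of the ERK output list moved from 0.66 to 0.44 after quantile normalization. Shapes depended on their threshold and scale, by construction of the classes. At a threshold of 1 the class with neither drug alone reaching it and the combination below the sum had 357 genes, falls not adding 30, MAPKi rise weakened 27, rises not adding 11, opposed above and below the sum 1 and 0, and neither drug alone, above the sum 33. At 0.25 the same shapes had 3, 237, 24, 106, 29 and 29, and 0, with HDACi rise weakened at 11 and MAPKi fall weakened at 30. On the deposited scale alone neither drug alone, below the sum had 237, falls not adding 274, HDACi rise weakened 101 and opposed below the sum 37. On the quantile scale alone neither drug alone, below the sum had 124, HDACi rise weakened 109, MAPKi fall weakened 193, MAPKi rise weakened 202, opposed above and below the sum 33 and 17, neither drug alone, above the sum 44 and rises not adding 167. Genes with the combination above both drugs went from 11 to 95 and below both from 443 to 79 after quantile normalization. Leaving out an array gave 21 to 81 for neither drug alone, below the sum, 25 to 42 for HDACi rise weakened (25 without vehicle replicate 2 or 3) and 4 to 11 for neither drug alone, above the sum. FOSL1 (0.65 to 0.94), UBE2T (0.45 to 0.54), RBL2 (-0.66 to -0.48) and PMEL (-0.88 to -0.61) each failed to pass without 1 or another array, whereas ETV5 and DUSP6 passed in some such fits. In the dimmest of 10 bins by mean level 1.23% of genes departed; the part of low signal was not tested.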
